A study of Saccharomyces cerevisiae with 36 samples.

Results

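The comparison described here set cells of an rrp6 deletion strain held at 42 °C for 45 min against unheated cells of the same strain, each in 3 RNA sequencing libraries. The 6 libraries were chosen by their labels from the 36 of the series, and all 6600 open reading frames (ORFs) in their count files were used. Rrp6 is the 3′ to 5′ exonuclease found in the nuclear form of the RNA exosome, which matures some RNAs and destroys others, and in yeast cells lacking it short-lived nuclear transcripts persist. A heat shock in budding yeast is known to activate Hsf1, which induces chaperone genes, and Msn2 and Msn4, which induce a general stress programme, while genes for making ribosomes are shut down.

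The heated group carried the RRP6 deletion and was kept at 42 °C for 45 min, and the unheated group carried the same deletion and was sampled at 0 min. Both came from Saccharomyces cerevisiae BY4742, a haploid laboratory strain of mating type α, grown to mid-log phase in rich YPD medium at 25 °C and heated by adding pre-warmed medium. A further 3 groups of 3 libraries served for comparison: rrp6 deletion cells at 10 min, and wild-type (WT) BY4742 cells at 45 min and at 0 min. How many independent deletion clones were used is not given in the labels. The heat duration carries no unit in the labels, and minutes were read from the treatment text.

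RRP6 itself had 0 counts in all 6 libraries, against 40 to 849 counts in the WT libraries at 0, 10 and 45 min. Counts to ORFs came to 4602126, 3057554 and 5138052 in the heated libraries, against 7465648, 6317241 and 12072112 in the unheated ones. Reads aligned to more than 1 place made up 21.1%, 24.2% and 26% of all reads in the heated libraries, against 10.0%, 13% and 12.2% in the unheated ones. Reads outside any ORF made up 8.41%, 8.75% and 7.89% in the heated libraries, against 5.61%, 5.5% and 5.36% in the unheated ones. Both classes are listed apart from the gene counts, and how shared reads were handled is not stated, so near-identical paralogs are uncertain where they are named, and the part of these shares in the results was not tested. The 20 ORFs with the most counts in a library took 47.6%, 43.2% and 44.2% of all ORF counts after heat, against 11.8%, 12.5% and 13% before it. Of the markers of the BY4742 background, LEU2, LYS2 and URA3, which are deleted in it, had 0 counts in all 6 libraries, and MET17, which it keeps, was counted in each. HIS3 had 58, 53 and 105 counts in the heated libraries, against 635, 596 and 1164 in the unheated ones; the altered allele of this background leaves part of the gene in place.

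Most of the transcriptome moved. Of 6017 ORFs with enough counts to test, 2436 rose after 45 min at 42 °C, which is 40.5% of those tested, and 2345 fell, which is 39%; 1236 were not called (edgeR's quasi-likelihood test, false discovery rate of 0.05 by the Benjamini-Hochberg method). Of these, 1629 rose and 1468 fell at least 2-fold, and 316 rose and 154 fell at least 16-fold. All 3 heated libraries lay above all 3 unheated ones for 2480 ORFs and below them for 2444. Levels are in counts per 1000000 ORF counts after scaling by trimmed means (CPM), which are not corrected for gene length, and fold changes are log2 values of heated over unheated cells with their standard error, n = 3 libraries a group. The choice of scaling mattered: the median of all 6017 log2 fold changes was 0.05 with trimmed means and −0.61 with total counts alone, which gave 1508 higher and 3331 lower ORFs. Each direction given below is the sign of the log2 fold change after scaling by trimmed means, unless total-count scaling is named. The counts of a list are to be read against the shares of all tested ORFs, 40.5% higher and 39% lower.

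**Figure D1:**
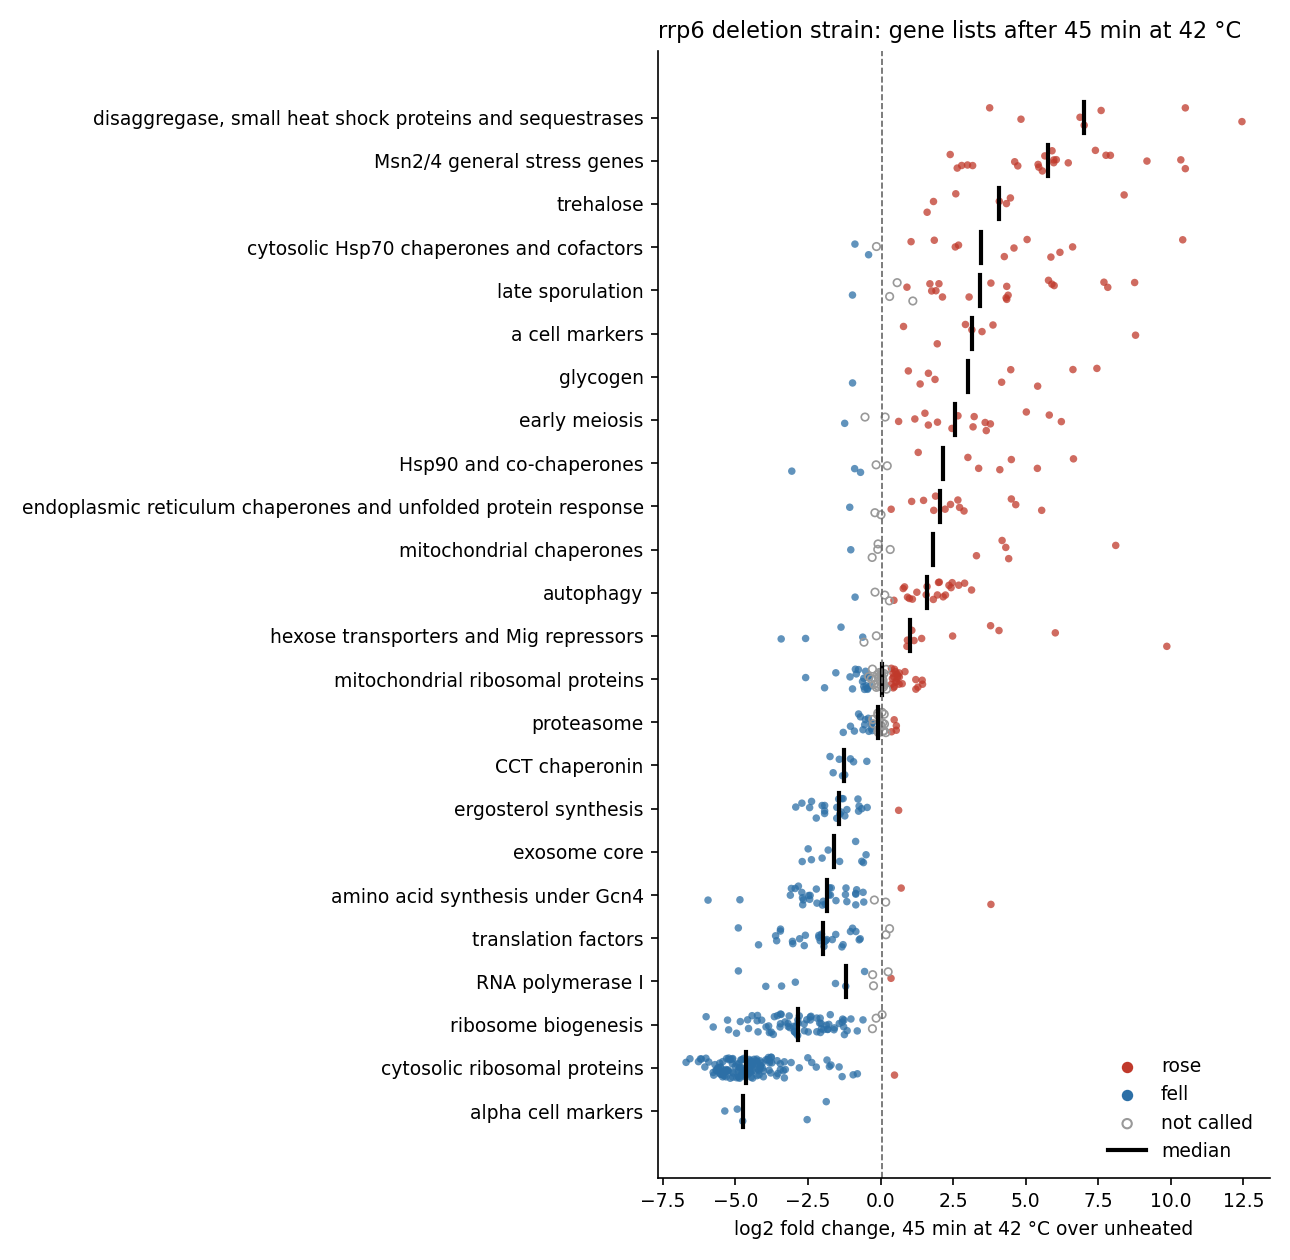
Log2 fold change of each tested member of 24 gene lists, rrp6 deletion cells after 45 min at 42 °C over unheated cells (x axis, log2 units). Each point is 1 gene, filled where it passed the test, the black bar is the list's median, and the dashed line is the median of all 6017 ORFs. The lists of disaggregase and small heat shock, Hsp70, Hsp90, mitochondrial and endoplasmic reticulum chaperones, trehalose and general stress lie to the right, and the CCT chaperonin, cytosolic ribosomal protein, ribosome biogenesis, RNA polymerase and exosome lists to the left.

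The list of disaggregase, small heat shock protein and sequestrase genes had the highest median, 7.01, and all 7 members rose. Small heat shock proteins hold aggregating proteins in a refoldable state, and the disaggregase pulls them apart again. HSP26, a small heat shock protein of the cytosol, stood at 99268, 83358 and 93242 CPM in the heated libraries, against 13.7, 22.2 and 13.7 CPM in the unheated ones. Its 3 heated libraries were close together and far above the unheated ones, a log2 fold change of 12.45 ± 0.42 (edgeR quasi-likelihood test, adjusted p = 8.2e-21). HSP104, the ring-shaped disaggregase, had 59259, 37316 and 38788 CPM after heat, against 322, 388 and 337 CPM before it, a log2 fold change of 7.01 ± 0.32. The small heat shock protein gene HSP42 rose by 7.60 ± 0.49, the sequestrase gene BTN2 by 6.87 ± 0.48 and its relative CUR1 by 3.76 ± 0.28. HSP31, a chaperone and glyoxalase, rose by 4.84 ± 0.40, and the membrane-associated small protein gene HSP12 by 10.50 ± 0.70. Together the 7 genes took 18.6%, 16.3% and 16.9% of ORF counts in the heated libraries, against 0.0898%, 0.148% and 0.112% in the unheated ones.

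Cytosolic Hsp70 chaperones refold proteins with the help of J-domain proteins and nucleotide exchange factors, and 11 of 14 listed genes rose while 2 fell. SSA4, the Hsp70 that is nearly silent without stress, had 77147, 43293 and 45408 CPM in the heated libraries, against 39.7, 45.3 and 37 CPM in the unheated ones, a log2 fold change of 10.41 ± 0.38. SSA3, its other stress-induced relative, rose by 6.18 ± 0.28, and SSA1 and SSA2, which are expressed without stress and share most of their sequence, rose by 5.05 ± 0.31 and 2.69 ± 0.20. The exchange factor gene SSE2 rose by 6.62 ± 0.23 and the J-domain protein gene APJ1 by 5.87 ± 0.36. The 2 that fell were SNL1, a membrane-anchored exchange factor, by 0.88 ± 0.15 on the log2 scale, and XDJ1, a J-domain protein, by 0.41 ± 0.18, a call lost without heated replicate A or B or unheated replicate B or C, at adjusted p = 0.0731, 0.114, 0.0572 and 0.0728. CAJ1 was not called at −0.14 ± 0.12. After total-count scaling 10 rose and 3 fell.

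Hsp90 and its partners mature kinases and receptors, and 7 of 12 listed genes rose while 3 fell. HSP82, the inducible Hsp90, had 63692, 47744 and 47025 CPM after heat, against 386, 668 and 529.6 CPM before it, and its constitutive twin HSC82 had 25122, 23757 and 23841 CPM, against 2847, 3109.6 and 3082 CPM. Both rose without overlap of the groups, HSP82 by 6.64 ± 0.35 and HSC82 by 3.01 ± 0.17, and their sequences are near-identical. The co-chaperones STI1, which links Hsp70 to Hsp90, AHA1, which speeds its ATPase, its relative HCH1 and the cyclophilin CPR6 rose by 4.50 ± 0.22, 4.11 ± 0.18, 3.38 ± 0.14 and 5.40 ± 0.22. The kinase-specific co-chaperone CDC37 rose by 1.30 ± 0.18. PPT1, the phosphatase that acts on Hsp90, went the other way with 12.4, 13.8 and 15.3 CPM after heat, against 109, 112 and 127 CPM before it, and CNS1 and CPR7 fell by 0.89 ± 0.19 and 0.69 ± 0.14 on the log2 scale. SBA1, the yeast p23, and SGT1 were not called, at 0.23 ± 0.13 and −0.15 ± 0.12, and both were lower with total-count scaling, which gave 7 higher and 5 lower genes.

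In the mitochondrion the matrix disaggregase HSP78 had 16484, 11563 and 11260.0 CPM in the heated libraries, against 41.1, 57.8 and 44.4 CPM in the unheated ones, a log2 fold change of 8.10 ± 0.33. The chaperonin pair HSP60 and HSP10 rose by 4.19 ± 0.24 and 4.31 ± 0.20, and SSC1, the import motor Hsp70, and its J-domain partner MDJ1 rose by 3.30 ± 0.22 and 4.41 ± 0.25. MGE1, the exchange factor of SSC1, fell by 1.03 ± 0.13 on the log2 scale, and the 4 not called were SSQ1 at −0.29 ± 0.18, JAC1 at 0.33 ± 0.17, ZIM17 at −0.10 ± 0.14 and ECM10 at −0.09 ± 0.23. SSQ1 and JAC1 serve iron-sulphur cluster assembly. In that list 5 of 10 genes rose and 1 fell, and 5 rose and 4 fell with total-count scaling.

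In the endoplasmic reticulum 13 of 16 listed genes rose and 1 fell. KAR2, its Hsp70, had 37124, 25931 and 24252 CPM after heat, against 563, 679.8 and 621 CPM before it, and ERO1, the oxidase that supplies disulphide bonds, had 3255, 2831 and 2479 CPM, against 126, 125 and 127 CPM. The disulphide isomerase gene MPD1 rose by 4.66 ± 0.26, the J-domain gene JEM1 by 2.87 ± 0.20 and HAC1, the transcription factor of the unfolded protein response, by 2.72 ± 0.16. CNE1, the yeast calnexin, fell by 1.06 ± 0.20 on the log2 scale. IRE1, the sensor that splices HAC1 RNA, was not called at −0.19 ± 0.12, nor was HRD3 of the degradation complex at 0.01 ± 0.20.

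Chaperones that serve new proteins moved the opposite way. Of 7 ribosome-associated chaperone genes 6 fell: SSB1 and SSB2, the ribosome-bound Hsp70 pair, by 2.99 ± 0.31 and 3.31 ± 0.27, their partners ZUO1 and SSZ1 by 3.00 ± 0.20 and 3.22 ± 0.17, and EGD1 and EGD2 of the nascent-chain complex by 3.55 ± 0.16 and 3.69 ± 0.18 on the log2 scale. BTT1, a minor subunit of that complex, was not called at −0.04 ± 0.22. All 8 subunit genes of the CCT chaperonin, which folds actin and tubulin, fell, by 1.74 ± 0.12 for CCT4 at the most and 0.47 ± 0.10 for CCT6 at the least.

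**Figure D2:**
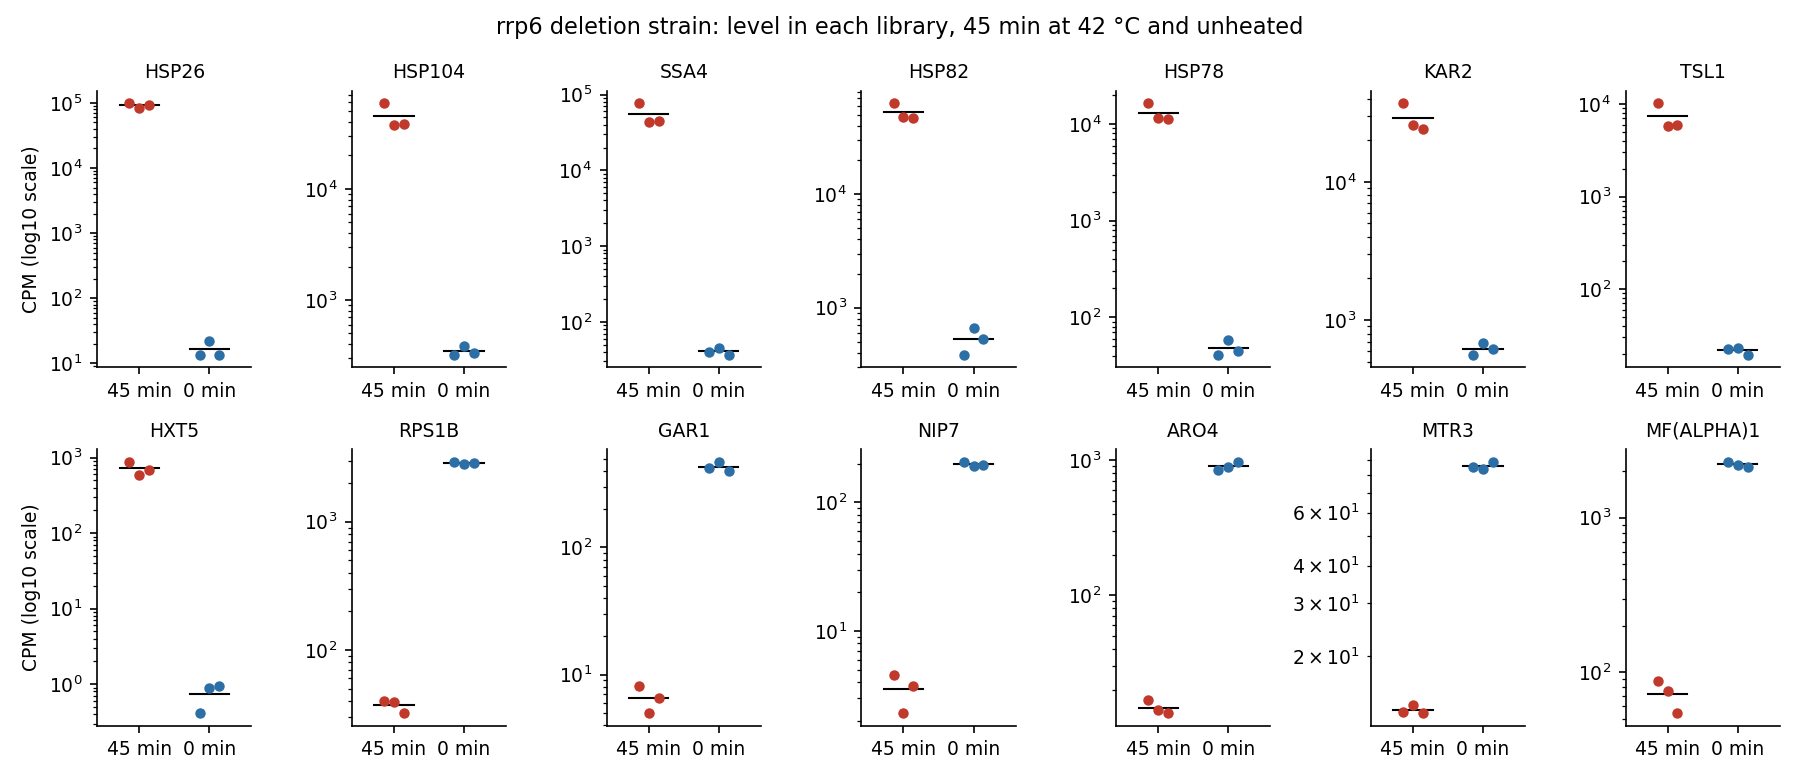
CPM in each library (y axis, log10 scale) for 14 genes, heated libraries in the left column of each pair and unheated libraries in the right; each point is 1 library and the bar is the mean of 3. Heated and unheated libraries do not overlap for any of the 14, and the first 8 genes are higher and the last 6 lower after heat. The rule for the largest changes required no overlap of HSP26, SSA4, HXT5, RPS1B, GAR1, NIP7 and ARO4. Of all 6017 ORFs, 2480 lay wholly above and 2444 wholly below.

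The promoters of HSP78 and HSP42 are printed here because each holds GAANNTTC, the core of the heat shock element that Hsf1 binds, in capitals. HSP26, HSP12 and SSA4, which rose more, hold no such match in the stretch searched. The letters were read 5′ to 3′ on the coding strand from the RefSeq sequence of build R64, from 250 bases before to 50 after the annotated gene start, which in this annotation is the start codon. HSP78 lies at chrIV:974194-974493 on the minus strand and HSP42 at chrIV:806371-806670 on the plus strand, where the printed stretches end inside the coding sequence.

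HSP78: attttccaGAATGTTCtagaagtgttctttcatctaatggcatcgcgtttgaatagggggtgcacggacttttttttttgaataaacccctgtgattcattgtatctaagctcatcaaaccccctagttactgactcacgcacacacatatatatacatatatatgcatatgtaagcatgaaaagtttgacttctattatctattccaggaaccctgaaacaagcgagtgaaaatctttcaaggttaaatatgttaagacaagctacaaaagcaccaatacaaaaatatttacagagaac

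HSP42: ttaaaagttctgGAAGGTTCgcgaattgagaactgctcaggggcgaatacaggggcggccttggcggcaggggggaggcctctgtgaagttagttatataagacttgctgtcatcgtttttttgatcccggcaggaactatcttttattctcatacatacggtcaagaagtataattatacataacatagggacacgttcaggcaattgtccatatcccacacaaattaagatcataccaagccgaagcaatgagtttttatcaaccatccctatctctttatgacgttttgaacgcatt

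GAANNTTC, which reads the same on both strands, was in 11.9% of 5916 such promoters and in 12 of 43 from the 4 lists of disaggregase and small heat shock, Hsp70, Hsp90 and mitochondrial chaperones. It was in 12.2% of promoters of genes that rose and in 12.3% of those of genes that fell, and 31 of 137 cytosolic ribosomal protein promoters held it too. A longer form with 3 units, the core followed after any 2 bases by GAA, was searched on both strands after the values were seen. It was in 0.794% of all promoters and in 8 of the 43. Of the 39 tested genes with 1 copy 23 rose and 13 fell, and of the 6 with 2 copies 5 rose and 1 fell. A match is a string of letters and not a bound site.

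Genes of the general stress programme under Msn2 and Msn4 all rose, 22 of 22, with a median of 5.78. HSP12 is on this list as well as on that of the disaggregase and small heat shock proteins. HSP12 had 27707, 23705 and 25288 CPM in the heated libraries, against 30.8, 13.3 and 9.06 CPM in the unheated ones; without unheated replicate A, the highest of these, its log2 fold change of 10.50 became 11.16. TMA10, a ribosome-associated stress protein, had 12445, 6869 and 6630.3 CPM after heat, against 7.66, 7.16 and 5.26 CPM before it, and SOL4, a 6-phosphogluconolactonase, had 843, 758 and 923 CPM, against 1.86, 1.51 and 1.07 CPM. Their log2 fold changes were 10.50 ± 0.70, 10.34 ± 0.57 and 9.18 ± 0.40, and RTC3 rose by 7.92 ± 0.43. Of the regulators MSN4 was not called at −0.33 ± 0.31, and of 15 listed stress transcription factors 10 rose and 3 fell (7 and 4 with total-count scaling). RPN4, the activator of proteasome genes, had 4585, 2642 and 2478 CPM after heat, against 199.7, 255 and 246 CPM before it, and USV1 and the repressor XBP1 rose by 4.08 ± 0.25 and 3.89 ± 0.35. HOT1 and PDR3 fell by 0.85 ± 0.15 and 0.69 ± 0.14 on the log2 scale, and ROX1 was not called at 0.45 ± 0.21, though it was at 0.59 without heated replicate A.

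The reserve carbohydrates moved with them. All 7 trehalose genes rose, those for synthesis (TPS1 by 4.09 ± 0.21, TPS2 by 4.47 ± 0.24, TPS3 by 1.82 ± 0.26 and TSL1 by 8.39 ± 0.36) as well as the trehalases that break it down (NTH1 by 4.34 ± 0.20, NTH2 by 1.60 ± 0.13 and ATH1 by 2.59 ± 0.16). TSL1, a regulatory subunit of the synthase complex, had 10249, 5805 and 5979.7 CPM in the heated libraries, against 22.8, 23.4 and 19.6 CPM in the unheated ones. Of 10 glycogen genes 9 rose, again on both sides: the synthases GSY1 and GSY2 by 5.41 ± 0.36 and 4.48 ± 0.32, the branching enzyme GLC3 by 4.17 ± 0.30, and on the side of breakdown the phosphorylase GPH1 by 6.63 ± 0.36 and the debranching enzyme GDB1 by 1.65 ± 0.29. The initiator GLG1 rose by 0.96 ± 0.26 and its paralog GLG2 fell by 0.97 ± 0.25 on the log2 scale. The phosphatase-targeting genes GAC1, PIG1 and PIG2 rose by 7.45 ± 0.46, 1.36 ± 0.20 and 1.88 ± 0.22.

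Antioxidant enzymes divided, with 13 of 22 higher and 6 lower, and 9 each way after total-count scaling. CTT1, the cytosolic catalase, had 859.7, 307 and 539.7 CPM after heat, against 7.45, 9.79 and 8.46 CPM before it, and the peroxidase genes GPX1 and PRX1 and the glutaredoxin GRX1 rose by 3.21 ± 0.32, 2.50 ± 0.24 and 2.42 ± 0.21. The cytosolic thioredoxin gene TRX1 fell by 2.70 ± 0.18 and its reductase gene TRR1 by 1.29 ± 0.15 on the log2 scale, and GPX2 fell by 2.36 ± 0.26 and CCS1, the copper chaperone of superoxide dismutase, by 1.34 ± 0.30. TSA1, SOD1 and GLR1 were not called, at −0.09 ± 0.23, −0.47 ± 0.25 and −0.40 ± 0.21; SOD1 passed the test at −0.67 without heated replicate C and −0.60 without unheated replicate A, and GLR1 at −0.52 without heated replicate B.

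The promoters of HSP12 and SOL4 are shown for the stress response element of Msn2 and Msn4, AGGGG or CCCCT on the other strand, in capitals. TMA10, which rose more than SOL4, holds no match in the stretch searched. HSP12 lies at chrVI:107006-107305 on the plus strand and SOL4 at chrVII:985722-986021 on the plus strand.

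HSP12: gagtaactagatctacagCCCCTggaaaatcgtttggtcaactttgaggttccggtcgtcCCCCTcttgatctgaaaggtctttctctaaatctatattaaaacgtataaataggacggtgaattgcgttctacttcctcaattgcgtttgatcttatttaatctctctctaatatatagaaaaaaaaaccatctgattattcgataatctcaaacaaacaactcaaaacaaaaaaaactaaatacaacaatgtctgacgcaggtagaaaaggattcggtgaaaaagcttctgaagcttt

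SOL4: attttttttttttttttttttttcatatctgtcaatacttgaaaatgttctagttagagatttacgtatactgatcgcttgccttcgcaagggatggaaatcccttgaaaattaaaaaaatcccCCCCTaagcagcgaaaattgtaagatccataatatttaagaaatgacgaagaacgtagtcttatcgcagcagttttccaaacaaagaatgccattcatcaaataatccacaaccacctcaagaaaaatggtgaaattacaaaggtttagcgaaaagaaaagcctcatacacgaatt

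The element was in 21.9% of all promoters, in 31% of those of genes that rose, in 14.6% of those of genes that fell and in 14 of 22 on the general stress list. It was also in 14 of the 43 promoters of the 4 chaperone lists. Those of HSP78 and HSP42, printed above, hold it in small letters. By number of copies, the median log2 fold change was −0.14 for 4454 genes with none, 0.51 for 1087 with 1 copy, 1.25 for 146 with 2 and 2.06 for 28 with 3 or more. The share of genes that rose went up with it, at 35.2%, 53.2%, 71.2% and 78.6%. Promoters shared by neighbouring genes make these genes not independent, so no test is given.

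**Figure D3:**
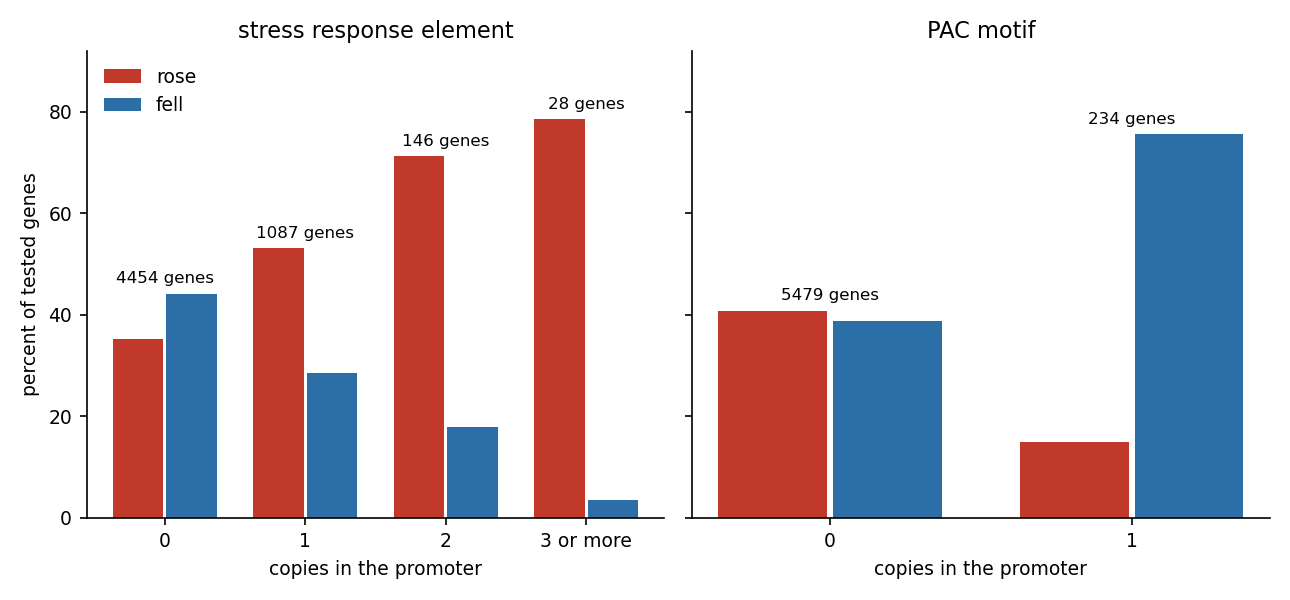
Percent of tested genes that rose and that fell after 45 min at 42 °C (y axis) by the number of copies of a motif in the promoter (x axis), for AGGGG on the left and GCGATGAG on the right; the number of genes is printed above each pair of bars. Rises become more frequent with copies of AGGGG and falls with GCGATGAG.

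In glycolysis 10 of 24 listed genes rose (41.7%) and 9 fell (37.5%), close to the 40.5% and 39% of all tested ORFs, or 10 and 13 with total-count scaling. HXK1, a glucose-repressed hexokinase, had 5785, 4651 and 6050.3 CPM in the heated libraries, against 77.4, 56.2 and 52.9 CPM in the unheated ones, a log2 fold change of 6.47 ± 0.44; HXK2, the main hexokinase of growth on glucose, fell by 1.20 ± 0.14 on the log2 scale. Of the glyceraldehyde-3-phosphate dehydrogenases, the stress form TDH1 rose by 5.17 ± 0.60 and TDH3 by 1.44 ± 0.20, and TDH2 was not called at −0.32 ± 0.33. The enolase gene ENO1 rose by 2.00 ± 0.48 and ENO2 was not called at −0.21 ± 0.19. CDC19, the main pyruvate kinase, fell by 1.03 ± 0.21 on the log2 scale and PYK2, its glucose-repressed paralog, rose by 4.20 ± 0.18. The TDH and ENO genes are near-identical within each set, so their values are uncertain. GLK1, the glucokinase, and GPM2 rose by 5.43 ± 0.29 and 6.05 ± 0.31. Falls among the single-copy steps were those of PGI1 by 1.64 ± 0.24, FBA1 by 2.00 ± 0.29 and TPI1 by 1.56 ± 0.20 on the log2 scale, and the main pyruvate decarboxylase PDC1 fell by 2.89 ± 0.20, to 812, 675 and 741 CPM, against 5507, 5262 and 5799 CPM before heat.

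Of 16 hexose transporter and Mig repressor genes 10 rose and 4 fell, or 5 and 6 with total-count scaling. HXT5, expressed in slow-growing cells, had 885, 595 and 691 CPM after heat, against 0.414, 0.879 and 0.933 CPM before it, while the low-affinity HXT1 had 24.2, 24.9 and 30.1 CPM, against 197, 329.7 and 329 CPM, and HXT3 had 98.7, 201 and 332 CPM, against 961, 1393 and 1440.0 CPM. The groups did not overlap for these 3 genes, which the rule for the largest changes required of HXT5. The log2 fold changes were 9.86 ± 0.53 for HXT5, −3.42 ± 0.35 for HXT1 and −2.58 ± 0.39 for HXT3, and HXT7, HXT9 and HXT10 rose by 3.79 ± 0.64, 4.08 ± 0.34 and 6.02 ± 0.35. The glucose repressor genes MIG1 and MIG3 fell by 0.61 ± 0.21 and 1.36 ± 0.30 on the log2 scale and MIG2 was not called at −0.57 ± 0.31, though it was at −0.96 without heated replicate C. In the respiratory list 14 of 35 genes rose (40%) and 12 fell (34.3%), shares close to the 40.5% and 39% of all tested ORFs, or 7 and 19 with total-count scaling. The cytochrome c gene CYC7 had 286, 366 and 512 CPM after heat, against 4.24, 3.01 and 2.87 CPM before it. COX5B, the anaerobic form of subunit V of cytochrome oxidase, rose by 4.25 ± 0.20, and the aerobic COX5A fell by 1.34 ± 0.26 on the log2 scale. Citrate synthase genes CIT1 and CIT2 rose by 2.73 ± 0.24 and 2.17 ± 0.17, as did SDH1 of succinate dehydrogenase by 2.03 ± 0.22, among 9 that rose (45%) and 7 that fell (35%) of 20 in the tricarboxylic acid cycle list, again close to all ORFs; the median of that list was 0.30 and −0.34 with total-count scaling.

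Genes for the ribosome itself fell together. All but 1 of the 137 genes for cytosolic ribosomal proteins were lower after heat (136 fell, 1 rose), with a median of −4.63. Together they took 0.797%, 0.824% and 0.702% of ORF counts in the heated libraries, against 27.2%, 26.2% and 25.8% in the unheated ones. RPS1B had 40.0, 39.5 and 32.2 CPM after heat, against 2943, 2819.6 and 2861 CPM before it, RPL8B had 43.3, 41 and 33.9 CPM, against 2954, 2759 and 2793 CPM, and RPS31, which encodes a ubiquitin fusion, had 105, 99.7 and 83.8 CPM, against 5873, 5713 and 5834 CPM. Heated and unheated libraries did not overlap for any of the 3, a condition of the rule that named them. The largest falls were those of RPL9A and RPS9B, by 6.70 ± 0.57 and 6.57 ± 0.71 on the log2 scale, and their paralogs fell by less, RPL9B by 0.94 ± 0.18 and RPS9A by 1.85 ± 0.21. Genes with an intron, where the coding sequence has 2 or more parts, had a median of −4.51 over 89, against −4.87 over the 48 without one. The member that rose was RPL15B, by 0.48 ± 0.14, a value of −0.17 with total-count scaling.

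Ribosome assembly genes fell as well: 70 of 73 ribosome biogenesis genes fell and none rose, with a median of −2.84. GAR1 and NHP2, proteins of the particles that make pseudouridine in ribosomal RNA, fell to 8.17, 4.99 and 6.59 CPM and 9.69, 13 and 11.3 CPM, against 419.8, 473 and 399 CPM and 418, 444 and 412 CPM before heat. NIP7, needed for the large subunit, had 4.54, 2.3 and 3.77 CPM after heat, against 208, 193 and 194 CPM before it, and ALB1, a shuttling assembly factor, had 3.63, 6.14 and 3.53 CPM, against 170.2, 162 and 164 CPM. Log2 fold changes were −6.01 ± 0.44 for GAR1, −5.23 ± 0.37 for NHP2, −5.76 ± 0.43 for NIP7 and −5.27 ± 0.35 for ALB1. The 3 not called were NOG2 at −0.15 ± 0.29, RRP5 at −0.28 ± 0.24 and UTP20 at 0.05 ± 0.22.

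NIP7, at chrXVI:153245-153544 on the plus strand, and ALB1, at chrX:189466-189765 on the plus strand, are shown for GCGATGAG, the PAC motif common to ribosome biogenesis genes, in capitals, or CTCATCGC where it lies on the other strand. GAR1, which fell more than either, holds no match in the stretch searched.

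NIP7: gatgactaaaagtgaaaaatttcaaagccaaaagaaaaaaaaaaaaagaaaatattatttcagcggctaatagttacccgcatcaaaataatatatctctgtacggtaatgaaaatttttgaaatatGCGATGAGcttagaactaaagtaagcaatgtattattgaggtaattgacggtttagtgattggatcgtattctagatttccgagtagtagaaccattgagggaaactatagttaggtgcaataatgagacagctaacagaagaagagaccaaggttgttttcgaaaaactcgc

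ALB1: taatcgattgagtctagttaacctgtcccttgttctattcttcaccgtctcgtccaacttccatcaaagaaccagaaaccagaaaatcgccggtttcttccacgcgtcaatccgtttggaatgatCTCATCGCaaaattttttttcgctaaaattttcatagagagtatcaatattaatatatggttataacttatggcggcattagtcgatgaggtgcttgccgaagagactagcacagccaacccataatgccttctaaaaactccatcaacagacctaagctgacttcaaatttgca

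PAC was in 3.99% of all promoters and in 45 of 73 on the ribosome biogenesis list. Of 234 tested genes with 1 copy 177 fell and 35 rose, with a median log2 fold change of −1.74, against 0.06 for the 5479 without a copy. AAAAATTTT, known as the RRPE motif, was searched on both strands after the values were seen and was in 7.07% of all promoters and 51 of the 73.

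The polymerases that transcribe ribosomal and transfer RNA genes fell unevenly by subunit. In RNA polymerase I, 7 of 11 genes fell: RPA12 fell to 4.84, 2.69 and 3.06 CPM, against 111, 107 and 100.3 CPM before heat, and RPA43, RPA49 and RPA34 fell by 3.95 ± 0.27, 3.41 ± 0.36 and 2.94 ± 0.16 on the log2 scale. Of the catalytic subunits RPA135 fell by 1.55 ± 0.18 and RPA190 was not called at −0.27 ± 0.25. In RNA polymerase III, 10 of 13 fell; RPC34, RPC11 and RPC31 fell by 3.87 ± 0.26, 3.67 ± 0.28 and 3.27 ± 0.19, while RPO31, its largest subunit, was not called at 0.12 ± 0.17. MAF1, the repressor of that polymerase, rose by 1.18 ± 0.14. Among regulators of ribosomal genes the repressors STB3 and DOT6 rose by 1.41 ± 0.13 and 1.0 ± 0.15, and TOD6, the paralog of DOT6, fell by 1.60 ± 0.23. The activators HMO1, IFH1 and FHL1 were not called, at −0.09 ± 0.13, 0.16 ± 0.16 and 0.07 ± 0.13. Of 30 translation factor genes 28 fell and none rose. TIF1, which with TIF2 encodes the helicase eIF4A, had 21.5, 19.6 and 24.9 CPM after heat, against 664, 646 and 675 CPM before it; TIF11, TIF34 and TIF3 fell by 4.20 ± 0.23, 3.62 ± 0.22 and 3.58 ± 0.26. The elongation factor genes TEF2 and EFB1 were not called, at 0.31 ± 0.15 and 0.18 ± 0.16.

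The genes of the exosome that lacks Rrp6 in this strain also fell. All 10 genes of its core were lower after heat, with a median of −1.61, and in WT cells the median was −1.71. The difference of the heat changes, rrp6 deletion minus WT, was called higher for 3 of the 10 and lower for 3. MTR3, a subunit of the ring, had 13, 13.8 and 12.9 CPM after heat, against 85.1, 84 and 88.7 CPM before it, and its ring partners SKI6, RRP46, RRP42, RRP43 and RRP45 fell by 2.49 ± 0.17, 1.41 ± 0.15, 0.86 ± 0.13, 0.59 ± 0.11 and 0.50 ± 0.14 on the log2 scale. The cap subunits RRP40, RRP4 and CSL4 fell by 2.38 ± 0.17, 2.01 ± 0.09 and 1.80 ± 0.13, and DIS3, the catalytic subunit that remains when Rrp6 is absent, by 0.65 ± 0.10. With total-count scaling all 10 fell as well. Of 7 nuclear cofactors 6 fell, with a median of −1.18, against −1.32 in WT, and no difference of the heat changes was called. LRP1 (Rrp47), the stabilising partner of Rrp6, fell by 1.28 ± 0.14, MPP6, an RNA-binding cofactor, fell to 9.08, 10.4 and 7.3 CPM, against 74.9, 76.2 and 68.4 CPM, and in the TRAMP complex, which tags RNA for the exosome, MTR4, PAP2, TRF5 and AIR1 fell by 1.10 ± 0.27, 0.81 ± 0.16, 1.18 ± 0.16 and 1.82 ± 0.23. AIR2, the paralog of AIR1, rose by 0.83 ± 0.13.

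The Nrd1 complex ends transcription of short nuclear RNAs and hands them to the exosome, and its own gene is known to be attenuated by this route. NRD1 had 159, 113 and 113 CPM in the heated libraries, against 329, 372 and 353 CPM in the unheated ones, a log2 fold change of −1.46 ± 0.34, and HRP1 fell by 1.73 ± 0.26 on the log2 scale. In WT cells NRD1 had 439, 292 and 265 CPM after 45 min of heat, against 90.4, 92.9 and 87.1 CPM before it, so the levels moved in opposite directions in the strains. The difference of the heat changes, rrp6 deletion minus WT, was −3.33 ± 0.48 (edgeR quasi-likelihood interaction test, adjusted p = 4.6e-06). NAB3 and SEN1, its partners, were not called, at −0.05 ± 0.17 and −0.29 ± 0.18. Of the guanine nucleotide genes IMD2, IMD3 and IMD4, of which IMD2 is attenuated by the same machinery, all fell, by 0.65 ± 0.22, 3.28 ± 0.17 and 1.23 ± 0.18; without heated replicate C IMD2 was at −0.52 and adjusted p = 0.0575. URA8 rose by 1.07 ± 0.19, URA2 was not called at 0.10 ± 0.17, and ADE12 and the termination factor PCF11 fell by 1.51 ± 0.29 and 0.82 ± 0.15.

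Among nuclear mRNA binding and export genes 5 of 17 rose and 8 fell. NPL3, a shuttling RNA-binding protein, and MEX67, the main export receptor, rose by 1.13 ± 0.15 and 0.68 ± 0.10, and PAB1, the poly(A)-binding protein, SUB2, an export helicase, and NUP2 fell by 2.11 ± 0.16, 1.85 ± 0.13 and 1.83 ± 0.12 on the log2 scale. With total-count scaling 1 rose and 13 fell, and 2 rose without heated or without unheated replicate A. In cytoplasmic mRNA decay 8 of 21 rose and 12 fell, or 3 and 13 with total-count scaling. EDC2, an enhancer of decapping, had 409, 325 and 295 CPM after heat, against 20.5, 44.7 and 36.9 CPM before it, and the helicase gene DHH1 and CDC39, the Not1 scaffold, rose by 1.25 ± 0.26 and 1.29 ± 0.18. UPF3 of nonsense-mediated decay, LSM1, SKI8 and the deadenylase gene CCR4 fell by 1.83 ± 0.20, 1.29 ± 0.10, 1.22 ± 0.11 and 1.19 ± 0.18.

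Protein disposal genes moved in both directions. UBI4, the polyubiquitin gene, had 5088, 3689 and 4072 CPM in the heated libraries, against 213, 184 and 181 CPM in the unheated ones, and the conjugating enzyme UBC4 and the ligase UBR1 rose by 1.50 ± 0.13 and 1.31 ± 0.10. SAN1, a nuclear ligase for misfolded proteins, fell by 0.84 ± 0.18 on the log2 scale, and SSM4 (Doa10) by 0.87 ± 0.11. For the 16 genes of that list 8 rose and 5 fell, and with total-count scaling 6 rose and 9 fell. Of 33 proteasome genes, whose activator RPN4 had risen, 4 rose and 14 fell, and with total-count scaling none rose and 30 fell. UMP1, the assembly factor, and PUP1 fell by 1.29 ± 0.14 and 1.04 ± 0.14, and RPN3 and RPT4 were not called, at −0.01 ± 0.12 and 0.07 ± 0.13. Of 25 autophagy genes 21 rose and 1 fell, and after total-count scaling 15 and 2. ATG8, the membrane tag of autophagosomes, had 69.9, 75.2 and 89 CPM after heat, against 10.1, 10.9 and 10.5 CPM before it, and ATG39, a receptor for nuclear autophagy, ATG17 and ATG14 rose by 3.13 ± 0.31, 2.69 ± 0.18 and 2.47 ± 0.21.

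The cell wall integrity pathway senses heat at the surface and runs through Pkc1 to the kinase Slt2 (Mpk1). SLT2 rose by 1.49 ± 0.23, with 179.8, 354 and 419 CPM in the heated libraries, against 114, 113 and 113 CPM in the unheated ones. The sensor gene MTL1 rose by 4.49 ± 0.31, the exchange factor ROM1 by 3.31 ± 0.22, and the phosphatases that switch Slt2 off, SDP1 and PTP2, by 4.34 ± 0.23 and 2.79 ± 0.17; PTP3 and MSG5, also phosphatases, and the sensor WSC3 fell by 0.96 ± 0.22, 0.80 ± 0.17 and 1.01 ± 0.17 on the log2 scale. PKC1 and BCK1 were not called, at −0.05 ± 0.12 and −0.17 ± 0.13. In all 11 of 20 cascade genes rose and 6 fell, with a median of 0.54 that was −0.13 with total-count scaling. Of 19 target genes 9 rose and 4 fell, a number of falls that was 2 without heated replicate A and 1 without heated replicate B or unheated replicate C, with a median of 0.34 that was −0.31 with total-count scaling. PIR3, a wall protein, had 145, 323 and 580.4 CPM after heat, against 14.4, 17.6 and 22.5 CPM before it, and the stress-induced glucan synthase GSC2 (FKS2) rose by 3.15 ± 0.21. The chitin synthase CHS1 rose by 2.63 ± 0.27, and CIS3 fell by 1.22 ± 0.13.

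Ergosterol and amino acid synthesis genes fell. Of 24 ergosterol genes 23 fell and 1 rose, ERG28, by 0.62 ± 0.12, a rise that total-count scaling turned to −0.0499. ERG3 had 64.2, 56.4 and 59.8 CPM after heat, against 445, 424 and 499 CPM before it, and ERG13, ERG25 and ERG6 fell by 2.71 ± 0.19, 2.44 ± 0.14 and 2.38 ± 0.17 on the log2 scale. Of 36 amino acid genes under Gcn4, 32 fell and 2 rose. ARO4, the first step of aromatic amino acids, had 16.6, 14.2 and 13.4 CPM after heat, against 851, 894 and 977 CPM before it, and BAT1, HOM2 and HIS1 fell by 4.85 ± 0.31, 3.11 ± 0.15 and 3.07 ± 0.19. ARG3 rose by 3.80 ± 0.23. In sulphate assimilation 15 of 22 genes rose and 3 fell, and total-count scaling gave 8 and 7: MET14 and MET2 rose by 2.13 ± 0.20 and 2.48 ± 0.22, and past homocysteine SAM1, an S-adenosylmethionine synthetase, and CYS4 fell by 3.49 ± 0.20 and 2.58 ± 0.16. In the phosphate regulon 11 of 20 rose and 5 fell, or 6 and 7 with total-count scaling, with the secreted phosphatase gene PHO5 at 2.21 ± 0.23 and the cyclin and kinase genes PHO80 and PHO85 lower by 0.89 ± 0.14 and 0.92 ± 0.16.

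Among cell cycle and chromatin genes falls outnumbered rises. Of 18 cyclin and G1 transcription factor genes 11 fell and 5 rose, or 15 and 1 with total-count scaling, and of 10 histone genes 9 fell; HTA2 and HTB2, an H2A and H2B pair, fell by 2.50 ± 0.18 and 2.70 ± 0.17 on the log2 scale, and HTA1 was not called at 0.14 ± 0.17. CLN2, a G1 cyclin, had 14.2, 13 and 10.1 CPM after heat, against 93, 87.6 and 90.9 CPM before it, and the mitotic cyclin genes CLB1 and CLB2 fell by 1.25 ± 0.26 and 0.93 ± 0.22. WHI5, the inhibitor of G1 exit, rose by 1.67 ± 0.28.

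Haploid α cells express a set of α-specific genes and keep those of a cells off. The 5 α-specific genes all fell: MF(ALPHA)1, the main pheromone gene, had 87.2, 75.6 and 54.4 CPM after heat, against 2309, 2203 and 2124 CPM before it, and SAG1, the α agglutinin, had 46.3, 38 and 44.7 CPM, against 1337, 1031 and 1109 CPM. MF(ALPHA)2, STE3 and AFB1 fell by 5.37 ± 0.45, 2.53 ± 0.37 and 1.87 ± 0.13 on the log2 scale. All 7 genes specific to a cells rose, and the list took 0.00923%, 0.0111% and 0.0109% of ORF counts in the heated libraries, against 0.0023%, 0.00206% and 0.00201% in the unheated ones. With total-count scaling 6 rose and none fell. Counts were low: STE6 had 41, 33 and 51 after heat, against 77, 54 and 100, and MFA1 9, 9 and 15, against 9, 5 and 13. In WT the medians of the α and a lists were −3.86 and 2.98, against −4.75 and 3.14 in deletion cells. STE2, the receptor for α pheromone, had 40.9, 40.3 and 39.5 CPM after heat, against 4.87, 5.15 and 5.73 CPM before it. ASG7 had 119, 88 and 157 counts, against 0, 1 and 1, a ratio of CPM of 585 with an exact 95% interval of 161 to 4846 that covers counting error only. The strain is labelled by BY4742 alone, and whether other cells contributed was not tested.

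Of 18 tested early meiosis genes 15 rose and 1 fell, and of 22 late sporulation genes 18 rose and 1 fell. SPO13 and MER1, also on the early list of 20, had too few counts to be tested. SPO13 had 5, 2 and 5 counts after heat, against 3, 4 and 14 before it. MER1 had 1, 0 and 0 counts, against 1, 0 and 1. DMC1, the meiotic recombinase, had 17.3, 22.2 and 19.1 CPM after heat, against 2.17, 1.63 and 0.666 CPM before it, and RIM4, an RNA-binding regulator of meiosis, rose by 5.02 ± 0.34. OSW1, a spore wall gene, had 95.1, 64.8 and 62.4 CPM, against 0.103, 0 and 0.267 CPM, a rise of 8.75 ± 0.49 that became 9.90 without unheated replicate C, and SPS100 and OSW2 rose by 7.83 ± 0.46 and 7.70 ± 0.47. UME6, which represses early meiotic genes during growth, fell by 1.24 ± 0.18 on the log2 scale, with 23, 16.5 and 21.7 CPM after heat, against 46.9, 49.1 and 49.5 CPM before it. In WT cells, where UME6 was higher after heat, the early meiosis median was 2.96, against 2.56 in the deletion strain. The difference of the heat changes, rrp6 deletion minus WT, was called lower for 5 of the 18 genes and higher for none. A link between UME6 and these genes was not tested. NDT80, the activator of the middle genes, was not called at 0.57 ± 0.28, though it was at 0.76 without unheated replicate B. These genes were at low levels, and some of their unheated libraries held only a few counts.

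Among the ORFs with the largest rises that no list holds, HSP30, a plasma membrane heat shock protein, had 42931, 36160.3 and 38764 CPM after heat, against 14.3, 98.6 and 58.2 CPM before it, a rise of 9.43 ± 0.72 that became 10.07 without unheated replicate B, and YNL194C, a membrane protein gene, rose by 9.23 ± 0.42. LDS1, which acts at the lipid droplets of spores, had 241, 195 and 297 counts, against 0, 1 and 2, a ratio of CPM of 785 with an exact 95% counting interval of 268 to 3815. YOL085C had no count in any unheated library and 70, 54 and 88 counts in the heated ones, at least 227-fold higher when 3 counts over the unheated group are taken as the floor. Of 683 identifiers with no RefSeq entry 302 were tested, and 164 rose and 41 fell, with a median of 1.39; with total-count scaling 128 rose and 71 fell. The filter keeps an ORF with enough counts in as few as 3 libraries, so identifiers counted mainly after heat could enter. How far this raised the share of rises was not tested. Many identifiers of this kind overlap another gene, and no source used here states whether counting used the strand. The 118 tested genes within 15 kb of a chromosome end had a median of 0.50, with 52 that rose and 24 that fell.

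Fewer ORFs were called between 45 and 10 min. At 45 min 1015 ORFs were higher than at 10 min in the same strain, 16.9% of those tested, and 1092 were lower, 18.1%; of these 331 and 402 differed at least 2-fold. This comparison shares the 45 min libraries with the one above. Of the list that holds HSP26, HSP12 and HSP104, 3 of 7 genes were higher at 45 min and none lower. HSP26 had 13.7, 22.2 and 13.7, 18829.6, 25290.3 and 27628 and 99268, 83358 and 93242 CPM in the 3 libraries each of 0, 10 and 45 min, a log2 difference of 1.94 ± 0.27 between 45 and 10 min, and HSP12 was higher at 45 min by 1.84 ± 0.48. HSP104 and SSA4 did not pass this test, at 0.36 ± 0.25 and 0.36 ± 0.25. CIT2 was past its peak, with 118, 161 and 139, 2730.1, 2852 and 2619 and 627, 659 and 589.8 CPM at 0, 10 and 45 min, and CWP1, a wall protein gene, likewise with 131, 169 and 173, 325, 644 and 728 and 96.9, 162 and 202 CPM; the log2 differences from 10 to 45 min were −2.13 ± 0.17 and −1.88 ± 0.35. Late risers were PIR3, higher at 45 than at 10 min by 3.38 ± 0.32 and by 2.77 without heated replicate C, OSW1 by 3.08 ± 0.32 and ASG7 by 2.32 ± 0.27. Late sporulation genes were higher at 45 min in 15 of 22 cases and lower in none, and endoplasmic reticulum genes in 10 of 16 cases and lower in 1. The 10 became 4 without 10 min replicate A and 5 without 45 min replicate A.

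Of the falling genes, ribosomal protein genes were lower again at 45 min than at 10 min in 130 of 137 cases and higher in none, with a median log2 difference of −2.52. Replicate A at 10 min stood apart from the other two libraries of that time, with higher levels of ribosomal protein genes such as RPS1B below; without it 119 were lower and the median was −2.08. Ribosome biogenesis genes were lower in 6 of 73 cases, or 3 without that library, and higher in none. RPS1B had 2943, 2819.6 and 2861, 711, 261 and 244 and 40.0, 39.5 and 32.2 CPM at 0, 10 and 45 min, and NIP7 had 208, 193 and 194, 12.6, 5.93 and 6.44 and 4.54, 2.3 and 3.77 CPM. ARO4 was lower at 45 than at 10 min by 4.11 ± 0.32 on the log2 scale, the α factor gene MF(ALPHA)2 by 3.09 ± 0.42 and TIF1 by 2.78 ± 0.29.

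**Figure D4:**
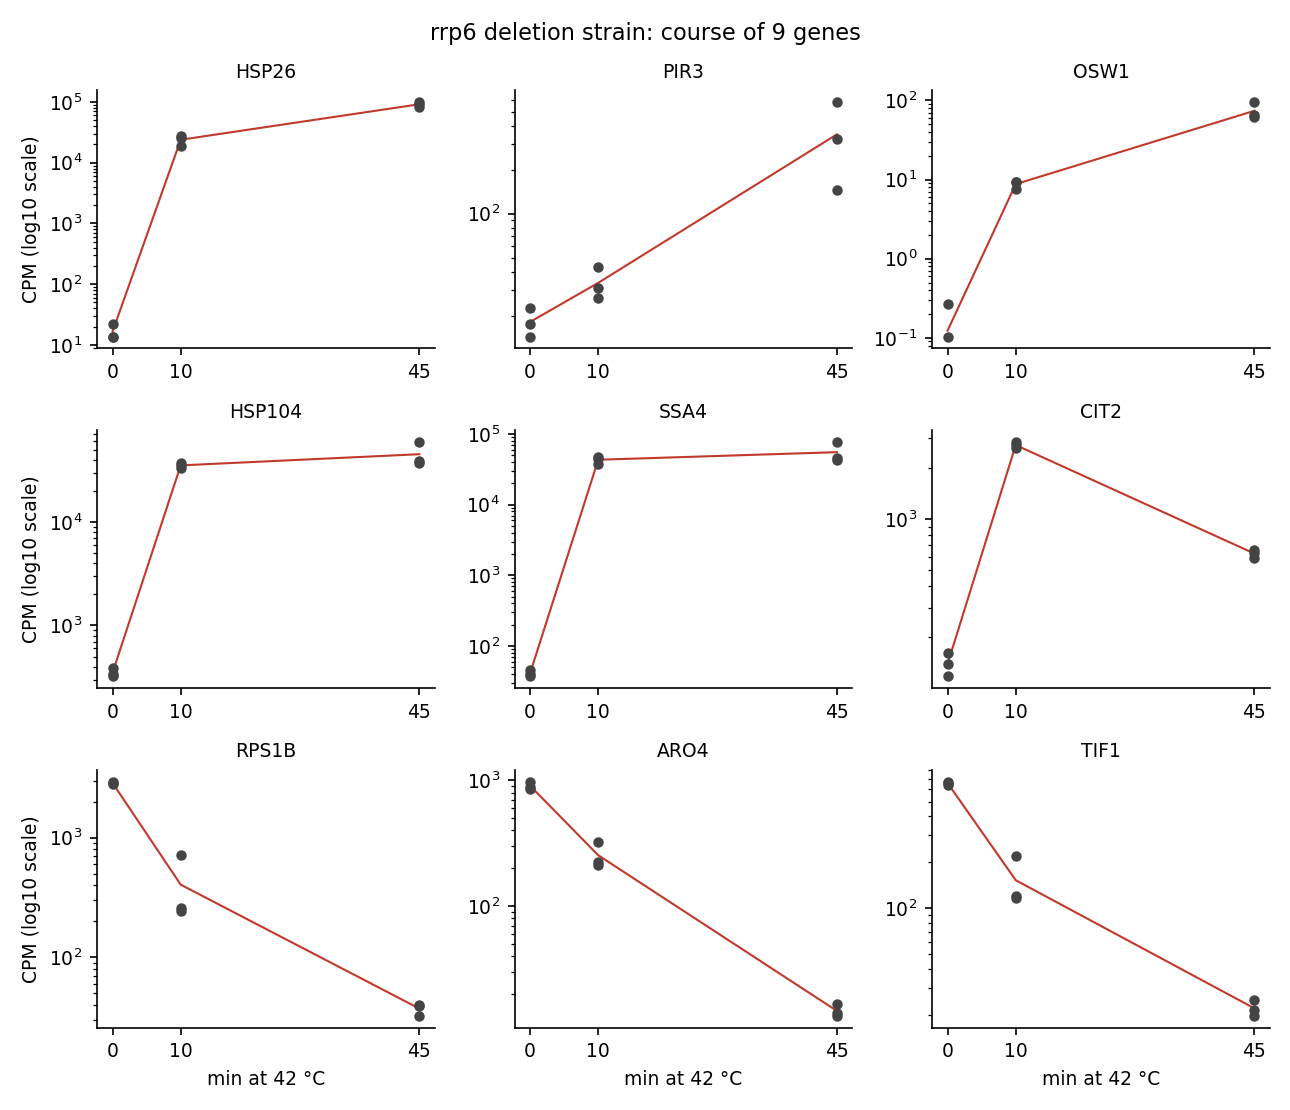
CPM of 9 genes (y axis, log10 scale) at 0, 10 and 45 min at 42 °C in the rrp6 deletion strain (x axis, minutes); points are the 3 libraries of a time and lines join their means, and 1 unheated OSW1 library at 0 is not drawn. HSP26 and PIR3 are higher at 45 than at 10 min, CIT2 is lower, HSP104 and SSA4 did not differ by the test, and RPS1B, ARO4 and TIF1 are lower at 45 than at 10 min.

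Whether the change over 45 min differed from that of WT cells was tested as an interaction, the rrp6 deletion change minus the WT change. It was called higher for 759 ORFs, 12.6% of those tested, and lower for 1178, 19.6%. WT cells without heat and with it enter this value, so a difference can lie at either time. The genes named here are the 8 largest called differences each way among RefSeq genes that average 5 CPM or more and whose heated and unheated deletion libraries do not overlap, and some other ORFs had larger values. ARO10, which starts the breakdown of aromatic amino acids, had 292, 179 and 139.8 CPM in heated and 120.4, 81.2 and 90.1 CPM in unheated rrp6 deletion cells, and 1765, 1613 and 1216 CPM in heated and 22.2, 42.4 and 26.5 CPM in unheated WT cells. The interaction was −4.57 ± 0.38 (edgeR quasi-likelihood test, adjusted p = 9.4e-10), and the strains differed most after heat. SIF2, a subunit of the Set3 deacetylase complex, had 65.1, 56 and 53.2 CPM after heat in the deletion strain and 39.4, 38.5 and 44.6 CPM before it, against 1506, 1039 and 844 CPM and 40.2, 42.3 and 47 CPM in WT, an interaction of −4.20 ± 0.48. ADR1, an activator of genes for non-fermentable carbon, had 107, 76.7 and 79.6 CPM after heat in deletion cells, against 578, 685 and 667 CPM in heated WT cells, and an interaction of −3.56 ± 0.28. PHM8, a nucleotidase gene, instead differed before heat: 17.1, 58.9 and 41.8 CPM in the unheated deletion strain and 0.913, 1.29 and 1.81 CPM in unheated WT, while the heated libraries held 1038, 860.5 and 885 CPM and 995, 878 and 937 CPM, an interaction of −4.88 ± 0.51. IRC15 differed at both times, with 4.97, 6.78 and 4.13 CPM in unheated deletion cells, against 0, 0.321 and 0 CPM in unheated WT, and 30.6, 29.5 and 29 CPM in heated deletion cells, against 47.8, 39.9 and 68.4 CPM in heated WT, an interaction of −5.67 ± 0.75 that rests on few counts in unheated WT and became −8.83 without unheated WT replicate B. NAG1, which lies inside a gene on the opposite strand, the membrane protein gene RTA1 and YOR032W-A completed the 8, with interactions of −4.63 ± 0.94, −3.61 ± 0.87 and −4.36 ± 0.65. These values also rest on few counts in unheated WT. NAG1 had 0.609, 0.321 and 0 CPM there, RTA1 0, 0.161 and 0.602 CPM and YOR032W-A 0, 0.482 and 0.301 CPM. Between heated deletion and heated WT cells RTA1 and YOR032W-A were not called, at −0.38 ± 0.25 and −0.04 ± 0.31 (log2). NAG1 was lower in heated deletion cells, at −1.39 ± 0.35. The interaction of RTA1 became −4.64 without unheated WT replicate C and that of YOR032W-A −5.31 without unheated WT replicate B.

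In the other direction RPL8A, the paralog of RPL8B, had the largest called difference under that rule, 3.20 ± 0.33: it fell less in the deletion strain, with 143, 112 and 134 CPM after heat and 309, 318 and 347 CPM before it, against 49.2, 73.9 and 33.9 CPM and 1178, 1117 and 1421 CPM in WT. GPI12, an enzyme of membrane anchor synthesis, had 101, 88.6 and 87.8 CPM in heated and 22.4, 25.1 and 23.6 CPM in unheated deletion cells, against 15.9, 22.4 and 11.1 CPM and 26.2, 25.2 and 25.6 CPM in WT, an interaction of 2.50 ± 0.24. JEM1 and JJJ3, both J-domain protein genes, and DFR1, dihydrofolate reductase, were at 2.19 ± 0.28, 2.21 ± 0.37 and 2.08 ± 0.34, with YKL107W, YJR115W and YJR056C at 2.26 ± 0.88, 2.11 ± 0.36 and 2.05 ± 0.27. The call of YKL107W did not hold in 8 of the 12 fits without 1 library, with adjusted p up to 0.246.

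By list, the interaction was called lower for 96 of 137 cytosolic ribosomal protein genes and higher for 3, against a background of 19.6% lower and 12.6% higher. Their median log2 change after heat was −4.63 in deletion cells and −3.11 in WT. Near-identical paralogs among these genes make their values uncertain. Reads aligned to more than 1 place made up 9.82%, 7.26% and 6.51% in heated WT libraries and 5.49%, 4.68% and 5.36% in unheated ones. In deletion libraries they made up 21.1%, 24.2% and 26%, and 10.0%, 13% and 12.2%. The part of these shares in the interaction was not tested. Mitochondrial ribosomal protein genes were called higher in 41 of 66 cases and lower in 1, with medians of 0.03 in deletion cells and −0.46 in WT. Amino acid genes under Gcn4 were lower in 19 of 36 cases and higher in 1, ergosterol genes lower in 10 of 24 and higher in none, and endoplasmic reticulum genes higher in 9 of 16 and lower in 2. The 9 became 5 without heated deletion replicate A and 4 without heated WT replicate B. Among trehalose genes 5 of 7 were called lower and none higher. TSL1 rose by 8.39 ± 0.36 in deletion cells and 10.04 ± 0.39 in WT, an interaction of −1.65 ± 0.39. Some list medians already differed before heat, by 0.71 for Gcn4, 0.62 for trehalose and 1.15 for small heat shock genes (log2, deletion over WT). They were −0.42 for cytosolic and −0.16 for mitochondrial ribosomal protein, −0.22 for ergosterol and −0.19 for endoplasmic reticulum genes. HSP104 and HSP42 rose less than in WT by −2.07 ± 0.36 and −2.35 ± 0.54, whereas the interaction of HSP26 was −0.02 ± 0.38 and not called. UME6 had an interaction of −2.54 ± 0.25, with 148, 123 and 114 CPM in heated and 48.7, 51.4 and 54.5 CPM in unheated WT cells. Of the 302 tested identifiers with no RefSeq entry 74 were lower and 3 higher, with a median change of 1.39 in deletion cells and 2.98 in WT. In unheated cells their median level was higher in the deletion strain, by 1.27 on the log2 scale. The limit of the filter given above holds for these values too. Genes within 15 kb of a chromosome end were lower in 39 of 118 cases and higher in 1.

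**Figure D5:**
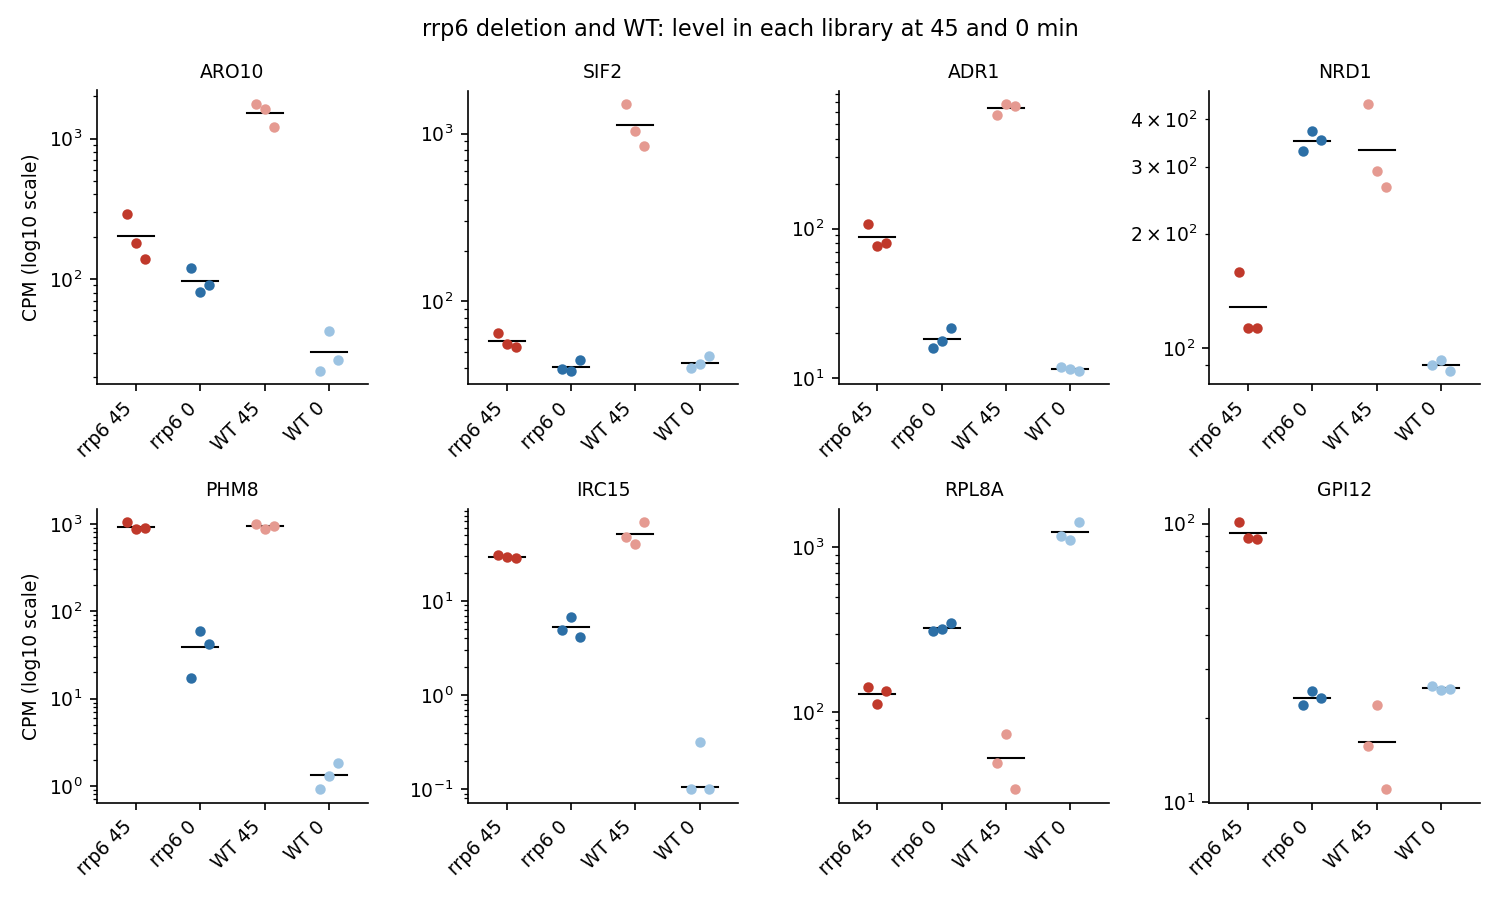
CPM in each library (y axis, log10 scale, 0 drawn at 0.1) of heated and unheated rrp6 deletion cells and heated and unheated WT cells, from left to right in each panel, for 8 genes; points are libraries and bars means of 3. The heated libraries of the strains do not overlap for ARO10, SIF2, ADR1, NRD1, RPL8A and GPI12, those of PHM8 do, and the unheated libraries of PHM8 and IRC15 lie far apart.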

How the data were processed

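Total RNA of 36 yeast samples was sequenced, 3 libraries for each of 4 strains at 0, 10 and 45 min, and the comparison rests on the 6 libraries of the rrp6 deletion strain at 45 and 0 min. The authors' alignment used HISAT2 2.1.0 and build R64 and their counts came from HTSeq, per the submitters' processing notes; the HTSeq version, its strand setting and its handling of shared reads are not given in the sources used here. In the deposited files there are whole-number counts for 6600 ORF identifiers and 5 summary lines, of which the summary lines entered neither totals nor tests. Of the identifiers 5917 matched RefSeq locus tags of R64, which gave names and positions.

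The filter was filterByExpr of edgeR with a minimum count of 10 and a minimum total of 15, and 6017 ORFs passed. Libraries were scaled by trimmed means of M values with factors from 0.618 to 1.388. edgeR 4.0.16 in R 4.3.3 gave the quasi-likelihood fit over all 12 groups (common biological coefficient of variation 0.1535), and p-values were adjusted by Benjamini-Hochberg over every ORF tested, with calls at a false discovery rate of 0.05. The standard error is the log2 fold change divided by the root of the F statistic. The steps were tested on simulated data. Alternatives were DESeq2 1.42.0, its size factors in edgeR, total counts, no filter, a mean of at least 5 CPM, only the libraries compared, replicate letters as a block, and each library left out.

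The series calls the libraries biological replicates, and nothing states separate cultures, so p-values measure the spread between libraries. Intervals of counts cover counting error only. The members, gene lists and naming rule were chosen with earlier results of these data known. Named genes were the 12 largest changes each way whose groups do not overlap and whose mean reaches 5 CPM, up to 4 rising, 4 falling and 4 uncalled members of a list (all members of lists of 12 or fewer), 8 interactions each way and fixed paralog sets. RPP1 and MRP8, which match the name patterns of the ribosomal protein lists but encode other proteins, were left out of them after the values were seen.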

Additional observations from a re-analysis of the deposited data

Results flagged for a closer look

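The change over 45 min differed between the rrp6 deletion strain and WT, by the interaction test, for 759 ORFs in the higher and 1178 in the lower direction (edgeR quasi-likelihood test, false discovery rate of 0.05). Among the genes named above, the differences of at least 4-fold, rrp6 deletion minus WT on the log2 scale, were −5.67 for IRC15, −4.88 for PHM8, −4.63 for NAG1, −4.57 for ARO10, −4.36 for YOR032W-A, −4.20 for SIF2, −3.61 for RTA1 and −3.56 for ADR1. IRC15, NAG1, YOR032W-A and RTA1 had few counts in unheated WT. The ribosomal protein genes RPL9A, RPS31 and RPL8B were at −3.46, −2.71 and −2.45, the termination factor gene NRD1 at −3.33, the glycogen synthase gene GSY1 at −3.19 and the meiotic repressor gene UME6 at −2.54. Heat shock genes in this range were HSP42 at −2.35, SSA1 at −2.11 and HSP104 at −2.07, with the stress transcription factor gene USV1 at −2.0. In the other direction stood RPL8A at 3.20, GPI12 at 2.50, NOG2 at 2.31, YKL107W at 2.26, JJJ3 at 2.21, JEM1 at 2.19, YJR115W at 2.11, DFR1 at 2.08 and YJR056C at 2.05. SSA1, RPL8A, RPL8B and RPL9A have near-identical paralogs, so their values are uncertain.

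Reads listed apart from the ORF counts were more frequent after heat. Reads outside any ORF made up 8.41%, 8.75% and 7.89% of the heated libraries, each above the highest unheated library at 5.61%. Reads aligned to more than 1 place made up 21.1%, 24.2% and 26% of the heated libraries, each above the highest unheated library at 13%. What these reads are was not tested.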

How the results depend on the processing

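The counts of called ORFs stayed within 1.5 times under every alternative run: 4401 to 4886 at 45 against 0 min (4781 as reported), 1702 to 2246 at 45 against 10 min (2107) and 1627 to 2077 for the interaction (1937). Leaving out 1 library gave 4598 to 4673, 1702 to 1885 and 1663 to 1986. Total counts without trimmed means had the largest effect, with 1508 higher and 3331 lower ORFs at 45 against 0 min, where the reported split was 2436 and 2345. It turned 13 of 318 named values to a negative log2 fold change: EFB1 −0.48, ERG28 −0.0499, FHL1 −0.61, HRD3 −0.65, HTA1 −0.54, IFH1 −0.51, RPL15B −0.17, RPO31 −0.55, RPT4 −0.60, SBA1 −0.44, TEF2 −0.35, URA2 −0.57 and UTP20 −0.62; of these ERG28 and RPL15B were called as reported. It ended 9 further calls and added 23. Of the same values DESeq2 ended 1 call and added 5, and a mean of at least 5 CPM did likewise. Under total counts 5 mitochondrial ribosomal protein genes rose and 42 fell, where 24 and 19 did as reported, and a mean of at least 5 CPM left 33 rising and 8 falling identifiers with no RefSeq entry.

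Same-letter libraries of 45 and 0 min had correlated deviations of 0.079, 0.04 and 0.137, so the letters were not taken as pairs, although each library correlated best with its own letter; those of 45 and 10 min were 0.204, 0.052 and 0.211. With the replicate block 4841, 2246 and 2077 ORFs were called in the 3 comparisons, and 5 of 318 named values gained a call and none lost one. The smallest two-sided p of an exact permutation test with 3 against 3 libraries is 0.1, so none is given.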

Other observations

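Of 66 mitochondrial ribosomal protein genes 24 rose after heat (36.4%) and 19 fell (28.8%), both under the shares of all tested ORFs, 40.5% and 39%. MRP10 had the largest rise, 1.44, followed by MRP49 at 1.43. MRPL37 fell by 2.58 on the log2 scale, RSM25 by 1.93 and MRPL15 by 1.54. With total-count scaling 5 rose and 42 fell.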
